A study of Mus musculus with 3 samples.

Results

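The Rab genes of the mouse were taken here as every protein-coding autosomal gene whose symbol is Rab followed directly by a digit, and their transcripts were followed in normal liver. The GENCODE M21 annotation of the mouse genome (build GRCm38) holds 65 such genes. The name covers more than the GTPases: 55 of the 65 encode Rab GTPases, and 10 encode proteins named for a Rab they bind or regulate (Rab11fip1 to Rab11fip5, Rab3gap1, Rab3gap2, Rab3ip, Rab3il1 and Rab5if). By gene identifier, 52 of the 65 appeared in the tables, among 12628 identifiers in all, and 51 had a value once strand and position were checked. Their 674 listed events came from 220195 in the 3 libraries.

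Healthy liver of wild-type C57BL/6 mice, an inbred laboratory strain, was sequenced in 3 RNA libraries that carry the label male. They form 1 group, numbered replicates 1 to 3. Nothing in the labels ties each replicate to an animal of its own, and the SD may therefore be technical. The series concerns liver cancer, of which no sample was analysed here, and the question open to these data is how much of each Rab gene normal liver held.

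Values are FPKM (sequenced fragments corrected for the length of the transcript and the size of the library), each given to a first exon, a last exon or another alternative piece of a transcript (an event). A gene's level is the largest of its summed first exons, its summed last exons and its largest internal event. It is scaled to length, so levels of different genes can be set side by side. Without read counts the depth of the libraries is unknown, and counting intervals cannot be given. Events at 0 are not listed, and a gene that is not listed may still be expressed: of all protein-coding autosomal genes with 1 annotated transcript 18.9% had a value, against 61.5% of those with several. For Rab genes these shares were 4 of 7 and 47 of 58 (81.0%).

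The 3 libraries held liver RNA. Albumin (Alb) stood at 25367, 30592 and 27018 FPKM, and 6 of 7 hepatocyte markers had a value. The other, Cyp2e1, had none under its own identifier, but 1797, 2451 and 2444 FPKM at its exactly annotated first or last exons. Markers of Kupffer cells (4 of 4 listed, summed 62.9 to 104 FPKM), sinusoidal endothelium (3 of 3, 41.4 to 49.2 FPKM) and stellate cells (3 of 4, 4.92 to 10.8 FPKM, with the defining gene Lrat not listed) were present too, so the Rab levels are those of mixed liver tissue. In bulk tissue, fewer cells of a type and less RNA per cell cannot be told apart. Of the pancreatic acinar markers Cela1 was listed at 7.32 to 9.27 FPKM, while Prss2 and Cpa1 were not listed. The sex label does not match the events listed in any of the 3 libraries. First exons inside Xist, the X-inactivation RNA of female cells, summed to 39.6, 38.6 and 38.2 FPKM, and 0 of 4 Y-linked genes had an event. None of the 10 events inside Xist carried its own identifier, and a gene that is not listed may still be expressed. No Rab gene in the rule lies on X or Y.

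Rab proteins are small GTPases that mark the membranes of a cell. Each cycles between a GTP-bound form, which sits on a particular membrane and recruits effectors such as tethers and motors, and a GDP-bound form, which a GDP dissociation inhibitor keeps in the cytosol. Exchange factors switch a Rab on and GTPase-activating proteins switch it off. Hepatocytes depend on this traffic for the secretion of plasma proteins and lipoproteins, for the uptake of ligands from blood and their delivery to lysosomes, and for the transport of bile transporters and antibodies to the canalicular membrane.

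The promoters of the 3 GTPase genes with the highest levels are shown as the sequence from which the most abundant Rab transcripts started. Each is the 250 bases before the RefSeq start (GRCm38.p6), 5′ to 3′ on the gene's strand. Capitals mark the GC box GGGCGG, the box CCAAT, the E-box CACGTG and the box TATAAA, on either strand. All 3 genes lie on the minus strand: Rab7 at chr6:88045271-88045520, Rab1b at chr19:5106997-5107246 and Rab5c at chr11:100738216-100738465.
Rab7 promoter: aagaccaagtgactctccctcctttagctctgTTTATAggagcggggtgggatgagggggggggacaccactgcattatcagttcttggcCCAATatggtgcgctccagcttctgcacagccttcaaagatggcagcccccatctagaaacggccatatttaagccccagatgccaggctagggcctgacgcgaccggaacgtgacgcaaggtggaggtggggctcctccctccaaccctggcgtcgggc
Rab1b promoter: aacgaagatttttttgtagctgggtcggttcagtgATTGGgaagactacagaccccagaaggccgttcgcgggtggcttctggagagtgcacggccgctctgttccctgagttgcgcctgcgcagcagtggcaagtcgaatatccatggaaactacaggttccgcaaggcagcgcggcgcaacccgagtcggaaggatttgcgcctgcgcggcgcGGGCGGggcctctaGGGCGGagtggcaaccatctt
Rab5c promoter: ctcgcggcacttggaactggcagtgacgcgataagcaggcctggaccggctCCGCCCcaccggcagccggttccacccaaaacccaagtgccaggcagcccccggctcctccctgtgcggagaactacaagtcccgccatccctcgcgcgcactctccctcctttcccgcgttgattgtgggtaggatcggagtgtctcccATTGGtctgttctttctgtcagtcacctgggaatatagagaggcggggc
The Rab7 stretch held 1 CCAAT, 1 TATAAA and 0 GGGCGG. Rab1b held 1 CCAAT and 2 GGGCGG, and Rab5c held 1 CCAAT and 1 GGGCGG. The listed first exon began at the very RefSeq start in all 3 genes.

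Across the family, 41 Rab genes with a listed first exon had a RefSeq window of 300 bases (250 before the start and 50 after it), and for 35 of them the strongest listed first exon began within 100 bases of that start. GGGCGG on either strand was found in 32 of the 41 windows (78.0%), against 48.3% of the 19152 windows of protein-coding autosomal genes. CCAAT was found in 20 (48.8% against 37.5%). TATAAA was found in 2, those of Rab7 and Rab3b (4.88% against 12.1%). The strongest listed first exon of Rab3b began 11220 bases after the RefSeq start, so its window is not at the listed start. CACGTG, the letters of the element bound by the lysosomal regulator TFEB, was found in 5 (12.2% against 8.05%): Rab24, Rab5a, Rab21, Rab3gap2 and Rab3il1. The median GC content was 63.3% against 57.3%. The Rab windows are those of genes listed in liver and the comparison windows are of all genes, so the shares are a description of letters and were not tested.

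Rab transcripts were common in liver and very unequal. Of the 65 genes, 51 (78.5%) had a value in at least 1 library, against 53.3% of all protein-coding autosomal genes, and 41 were listed in all 3. Of these 51, 39 (76.5%) reached 1 FPKM on average, against 76.8% of all valued genes, and 17 (33.3%) reached 10 FPKM, against 26.6%. The median of mean log2(FPKM + 1) was 2.48 over the 51 genes and 2.23 over the 11084 genes. The 41 GTPases had a median of 2.91, and the 10 partners named after a Rab had one of 1.47. Within the GTPases the 3 highest genes carried 34.2% ± 2.02 (SD, n = 3) of the summed FPKM, the 5 highest 48.1% ± 1.97 and the 10 highest 71.3% ± 0.772.

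**Figure D1:**
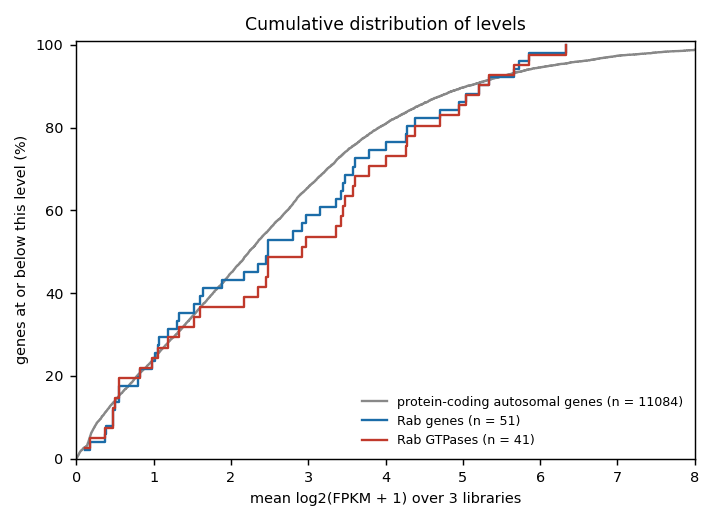
Cumulative share of genes (vertical axis, %) at or below a mean log2(FPKM + 1) over 3 libraries (horizontal axis) for 11084 protein-coding autosomal genes, 51 Rab genes and 41 Rab GTPases with a value. The Rab curves lie to the right of the grey curve over the middle of the range, with medians of 2.48 and 2.91 against 2.23.

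Rab7, the GTPase that drives late endosomes and autophagosomes to fuse with lysosomes, had the highest level of the family. It stood at 73.6, 80.0 and 85.0 FPKM in replicates 1, 2 and 3 (79.6 ± 5.70, SD, n = 3). Every library lay above every library of the next gene. Of its 50-base stretches, 11.2% also occur in another annotated transcript, mostly that of the pseudogene Rab7-ps1, so part of its level is uncertain. Rab24, a late endosomal GTPase linked to autophagy, stood at 24.1, 16.6 and 15.8 FPKM, with replicate 1 above the other 2. Rab32, which directs enzymes to lysosome-related organelles, stood at 9.81, 11.8 and 12.1 FPKM. Rab29, known for recruiting the kinase Lrrk2, had 6.33, 6.75 and 7.59 FPKM. The late endosome and lysosome group had a value for 5 of 6 members, 4 of them at 1 FPKM or more, and its values summed to 117 ± 3.60 FPKM. Rab7b was not listed. Rab38, a GTPase of melanosomes, was just under 1 FPKM on average (0.731, 1.16 and 1.04).

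ER and Golgi GTPases held the largest sum, 187 ± 1.96 FPKM (SD, n = 3), and it was nearly the same in every library (185, 189 and 186). Rab1b, which like Rab1a carries vesicles from the ER to the Golgi, stood at 63.3, 51.2 and 56.9 FPKM (57.1 ± 6.09). Rab2a, which acts at the ER-Golgi intermediate and on late endosomes, stood at 36.7, 42.4 and 39.8 FPKM (39.6 ± 2.88). Rab1a stood at 34.9, 35.9 and 36.7 FPKM (35.9 ± 0.903). The highest library of Rab1a and the lowest of Rab2a, both at 36.7 FPKM, overlapped, while all 3 libraries of Rab1b lay above both. Rab18, a GTPase of the ER and of lipid droplets named after its values were seen, had 29.2, 36.0 and 31.1 FPKM. Rab6a, which moves vesicles from the Golgi back to the ER, had 11.2, 13.3 and 13.9 FPKM. Of the group's 14 members 11 had a value and 8 reached 1 FPKM on average. Rab19, Rab2b and Rab6b stood under 1 FPKM, and Rab36, Rab39 and Rab43 had no value under their own identifiers.

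Early endosome GTPases were led by the 3 Rab5 genes, which govern the fusion of endocytic vesicles with early endosomes. Rab5c stood at 50.6, 48.2 and 49.5 FPKM (49.4 ± 1.24, SD, n = 3). Rab5b stood at 21.4, 27.2 and 27.3 FPKM (25.3 ± 3.37), and Rab5a at 16.4, 19.6 and 19.1 FPKM (18.3 ± 1.73). Every library of Rab5c lay above every library of Rab5b and Rab5a. Of the Rab5b 50-base stretches, 13.0% also occur in the pseudogene Gm13991, so its level carries that uncertainty. Rab21, named after its values were seen, followed at 8.88, 10.2 and 8.80 FPKM. Rab22a, another early endosome GTPase, stood lower at 3.89, 4.31 and 4.18 FPKM. The group had a value for 6 of 9 members, 5 of them at 1 FPKM or more, and a sum of 107 ± 4.69 FPKM. Rab31 stood at 0.504 and 1.09 FPKM in replicates 1 and 2 and was not listed in replicate 3, and Rab4a, Rab4b and Rab20 had no value under their own identifiers.

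GTPases of recycling endosomes and of polarised delivery had a value for 10 of 12 members, and 9 of these had means of 4.52 to 30.4 FPKM. Rab14, which works between the Golgi and endosomes, stood at 28.7, 38.9 and 23.7 FPKM (30.4 ± 7.75, SD, n = 3), with replicate 2 the highest. Rab10, a GTPase of basolateral and insulin-regulated delivery, stood at 17.4, 19.6 and 22.6 FPKM (19.9 ± 2.61). Rab11a, the recycling endosome GTPase needed for delivery to the apical membrane, stood at 17.1, 17.9 and 11.3 FPKM (15.4 ± 3.63), with replicate 3 the lowest. Rab8a, another GTPase of apical delivery, held to 10.2, 10.2 and 9.88 FPKM. The group summed to 116 ± 12.0 FPKM, highest in replicate 2 (129) and lowest in replicate 3 (105). Rab8b was under 1 FPKM, and Rab15 and Rab25 had no value.

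Regulated secretion had the lowest median of the 8 groups, 0.68 on the log2(FPKM + 1) scale over 6 valued genes, and its values summed to 4.68 ± 2.22 FPKM (SD, n = 3). Rab3d, a GTPase of secretory granules, stood at 0.465, 1.905 and 2.72 FPKM, with replicate 1 far below the others. Rab3a, known from synaptic vesicles, stood at 1.43, 1.01 and 1.45 FPKM. Rab26 stood at 0.359, 0.274 and 2.18 FPKM, with replicate 3 apart. Of 103 events under the identifier of Rab26, 97 lay inside the neighbouring gene Traf7 and were left out. Of the 8 members, 2 reached 1 FPKM on average, 4 (Rab26, Rab27a, Rab37 and Rab3b) were listed below it, and Rab27b and Rab3c had no value. Rab27a, which docks granules in immune cells and melanocytes, was listed at 0.768 and 0.770 FPKM in replicates 2 and 3 and not in replicate 1.

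Among the cilium GTPases, Rab28 stood at 5.21, 7.65 and 6.99 FPKM and Rab23, a negative regulator of hedgehog signalling, at 2.12, 1.85 and 2.11 FPKM. The 2 genes did not overlap in any library. Rab40c, which joins a ubiquitin ligase through its SOCS box, stood at 3.15, 3.79 and 3.56 FPKM and was the only valued member among 4 other GTPases. Rab40b, Rab42 and Rab44 had no value.

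Of the 10 partners whose symbols start with Rab, all had a value and 8 reached 1 FPKM on average. Rab5if, a small membrane protein named for Rab5, was far above the rest at 45.2, 60.0 and 52.3 FPKM (52.5 ± 7.36, SD, n = 3). Rab3ip, the exchange factor for Rab8 known as Rabin8, stood at 8.41, 5.66 and 10.2 FPKM. Rab3gap1, the catalytic subunit of a complex that inactivates Rab3 and activates Rab18, stood at 6.00, 5.84 and 6.06 FPKM. The other subunit, Rab3gap2, had 1.80, 1.71 and 2.97 FPKM. Of the Rab11 effectors, Rab11fip3, Rab11fip1 and Rab11fip4 had means of 2.80, 1.11 and 1.05 FPKM. The level of Rab11fip4 came from its last exons in replicates 1 and 2, and summed first exons alone gave 0.280 ± 0.445 FPKM. Rab11fip2 and Rab11fip5 were under 1 FPKM and missing from 1 library each.

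**Figure D2:**
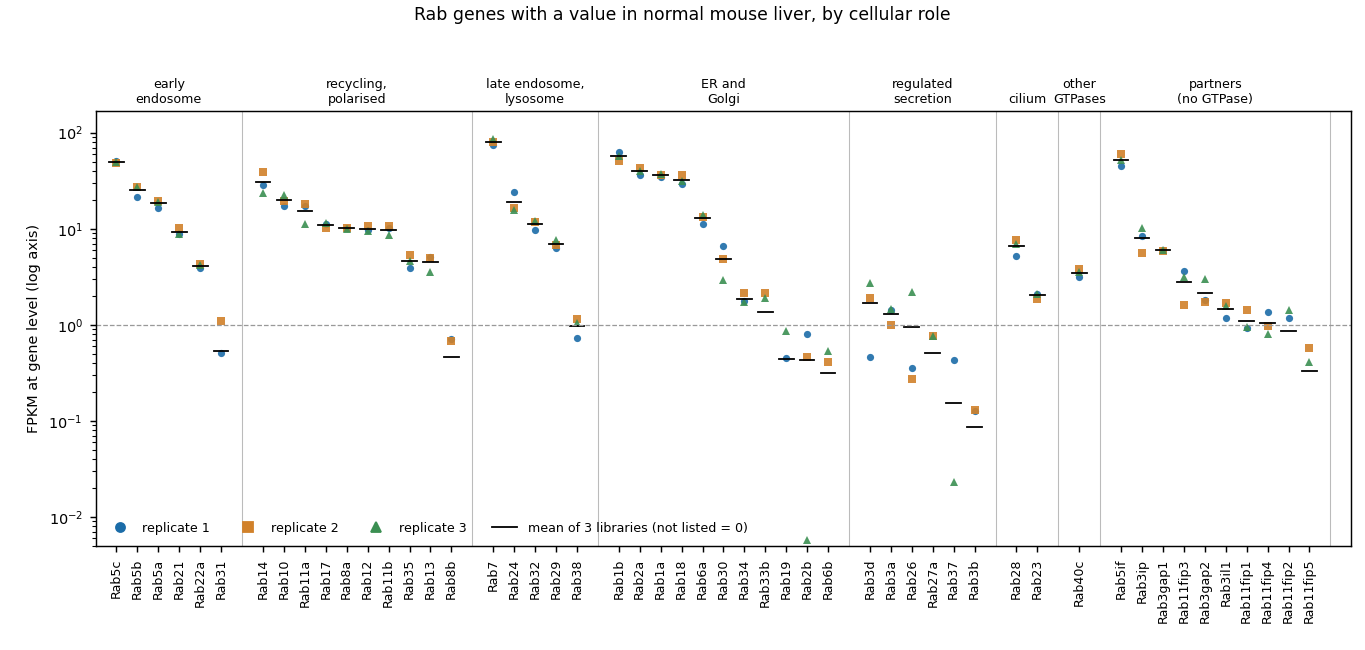
Gene-level FPKM (vertical log axis) of the 51 Rab genes with a value, grouped by role and ordered by mean, with 1 marker per library and a bar at the mean of 3 libraries (a library where the gene was not listed counts as 0 in the bar and has no marker). Rab7 leads at 73.6 to 85.0 FPKM, and regulated secretion has no gene above 2.72 FPKM.

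Ranked by mean, the 30 GTPases that reached 1 FPKM and were listed in every library ran Rab7, Rab1b, Rab5c, Rab2a, Rab1a, Rab18, Rab14, Rab5b, Rab10, Rab24, Rab5a, Rab11a, Rab6a, Rab32, Rab17, Rab8a, Rab12, Rab11b, Rab21, Rab29, Rab28, Rab30, Rab35, Rab13, Rab22a, Rab40c, Rab23, Rab34, Rab3d and Rab3a. Of the 29 steps between neighbours, 6 had libraries that did not overlap: Rab7 above Rab1b, Rab1b above Rab5c, Rab5c above Rab2a, Rab21 above Rab29, Rab22a above Rab40c and Rab40c above Rab23. The ranges of the other 23 neighbouring pairs overlapped. In 3 of these the order still held within every library: Rab2a over Rab1a (0.138 ± 0.0875 in log2(FPKM + 1), SD, n = 3), Rab5b over Rab10 (0.332 ± 0.103) and Rab6a over Rab32 (0.175 ± 0.00902). In the other 20 the order of the neighbours differed between libraries. Rab33b, named after its values were seen, also passed 1 FPKM on average and was listed at 2.16 and 1.89 FPKM in replicates 2 and 3 and not in replicate 1.

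The 12 genes with a mean under 1 FPKM were Rab38, Rab26, Rab11fip2, Rab31, Rab27a, Rab8b, Rab19, Rab2b, Rab11fip5, Rab6b, Rab37 and Rab3b, with means from 0.979 down to 0.0857 FPKM. The 14 with no value were Rab15, Rab20, Rab25, Rab27b, Rab36, Rab39, Rab3c, Rab40b, Rab42, Rab43, Rab44, Rab4a, Rab4b and Rab7b. Rab36 had 4 events under its identifier, all on the opposite strand. Absence from these tables does not show that a gene was silent.

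Pairs of close relatives, and the subunits Rab3gap1 and Rab3gap2, were compared within each library, so that differences in library size weigh little. The Rab5 pairs share genes, so the pairs are not independent. Of 19 pairs, 11 had both genes in all 3 libraries, and in 10 of these the same gene was higher in every library. With 3 libraries an exact two-sided sign test cannot give a p below 0.25, and the pairs were not tested. The largest difference was Rab2a over Rab2b, at 4.38, 4.89 and 5.34 on the log2(FPKM + 1) scale (4.87 ± 0.482, SD, n = 3). Rab2b itself stood at 0.811, 0.466 and 0.00577 FPKM, which leaves its level in replicate 3 near the bottom of the tables. In Rab32 over Rab38 the difference was 2.64, 2.56 and 2.68 (2.63 ± 0.0580), with the smallest SD of the 11 pairs and 10.1 to 13.4 times more Rab32.

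Among the Rab5 genes, Rab5c exceeded Rab5a by 1.39 ± 0.166 and Rab5b by 0.948 ± 0.223 in log2(FPKM + 1), or 2.46 to 3.10 times and 1.77 to 2.37 times in FPKM. Rab5a lay below Rab5b in all 3 libraries (-0.37, -0.45 and -0.50). That order turned when only exactly annotated first and last exons were counted, to 0.26 ± 0.175, because a first exon of Rab5b that is not in the annotation then drops out. In the ER-Golgi pair, Rab1a was at 0.552 to 0.701 of Rab1b (-0.84, -0.50 and -0.62 in log2). Rab10 exceeded Rab13, a GTPase of tight junctions, by 1.93 ± 0.414, and Rab11a exceeded Rab11b by 0.588 ± 0.206, least in replicate 3 (0.350).

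In the partners, Rab3gap1 exceeded Rab3gap2 by 1.16 ± 0.288 (SD, n = 3), although both belong to 1 complex, and Rab3il1 lay below the related exchange factor Rab3ip by -2.12, -1.31 and -2.12. Rab3a and Rab3d had no fixed order: the difference was 0.73 in replicate 1 and -0.53 and -0.61 in replicates 2 and 3. It changed sign when replicate 2 or replicate 3 was left out, to 0.063 and 0.099. In 4 pairs both genes were listed in 2 libraries, and the first was higher in both: Rab6a over Rab6b (3.34 and 3.27), Rab8a over Rab8b (2.72 and 2.74), Rab22a over Rab31 (1.70 and 1.35) and Rab11fip1 over Rab11fip5 (0.63 and 0.47). For Rab4a and Rab4b, Rab7 and Rab7b, Rab27a and Rab27b, and Rab40c and Rab40b, no difference was computed since at least 1 gene was not listed.

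**Figure D3:**
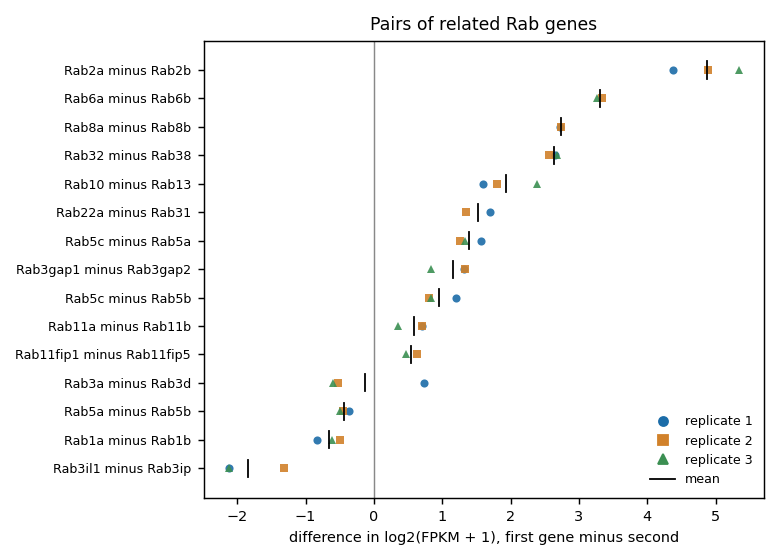
Difference in log2(FPKM + 1), first gene minus second, for the 15 pairs with both genes listed in at least 2 libraries, with 1 marker per library and a bar at the mean. Rab2a minus Rab2b lies at 4.38 to 5.34, and Rab3a minus Rab3d is the pair whose libraries fall on both sides of 0.

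Rab genes had a smaller median spread between libraries than genes in the same range of mean, mostly at 10 FPKM and above. Over the 38 that reached 1 FPKM on average and were listed in every library, the median coefficient of variation (SD over mean, n = 3) was 11.3%, against 17.6% over 7820 protein-coding autosomal genes in the same range of mean. A value under 10% was seen in 14 of the 38 (36.8%, against 22.4%). The gap was wider among the higher genes: at 10 FPKM and above the medians were 10.9% and 14.3% (17 and 2436 genes), and from 1 to 10 FPKM they were 18.5% and 19.4% (21 and 5384 genes). Rab genes lay in the higher part more often (17 of 38, against 2436 of 7820). The pooled figures are therefore not matched for level, and the pooled gap was larger than that in either part. The medians were not tested, since genes of 1 library are not independent. The median deviation of the Rab genes from their own means was -0.054, 0.065 and 0.018 in log2 for replicates 1, 2 and 3, and that of the 7820 genes was -0.0049, 0.013 and 0.0087.

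The steadiest of these 38 genes were Rab8a (coefficient of variation 1.93%), Rab3gap1 (1.94%), Rab5c (2.51%), Rab1a (2.52%) and Rab22a (5.14%). In Rab8a the highest library was 1.03 times the lowest. The place of Rab3gap1 depends on how its level is taken. Its summed first exons were 4.69, 5.34 and 4.43 FPKM (4.82 ± 0.471, SD), and exactly annotated first and last exons gave 4.53 ± 0.771. Among the same 38 genes the most variable were Rab3d (67.3%), Rab30 (38.8%), Rab11fip3 (38.1%), Rab3gap2 (32.6%) and Rab3ip (28.4%). Below 1 FPKM, Rab26 and Rab2b had larger values (115% and 94.5%). Rab30, a Golgi GTPase, stood at 6.65, 4.80 and 2.93 FPKM, 2.27 times higher in replicate 1 than in replicate 3. Rab11fip3 stood at 3.64, 1.60 and 3.17 FPKM by its summed first exons, lowest in replicate 2. Its summed last exons were 0.724, 0.918 and 0.963 FPKM, lowest in replicate 1. The low and high libraries were not the same from gene to gene: Rab3d was lowest in replicate 1, Rab30 highest there, and Rab3ip lowest in replicate 2.

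**Figure D4:**
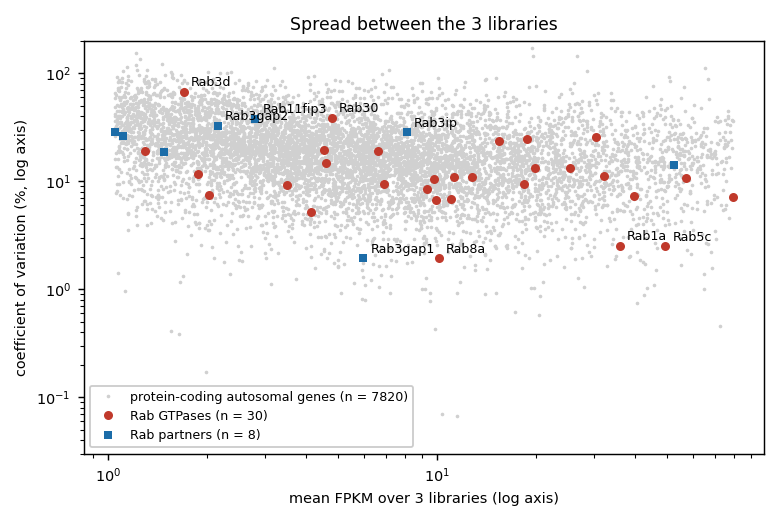
Coefficient of variation over 3 libraries (vertical log axis, %) against mean FPKM (horizontal log axis) for 7820 protein-coding autosomal genes (grey), 30 Rab GTPases (red) and 8 Rab partners (blue). The 5 most variable and 4 of the steadiest of these Rab genes are named, and Rab8a, Rab3gap1, Rab5c and Rab1a lie at 1.93 to 2.52%.

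Most Rab transcripts came in 1 dominant form. At 36 sites in 26 Rab genes the tables list alternatives that sum to at least 1 FPKM in every library, and the minor forms (all but the form with the highest mean share) took at least 10% on average at 9 sites (25.0%), against 5082 of 12287 sites (41.4%) in all protein-coding autosomal genes. Of the 16 first-exon sites 7 passed that mark (43.8%, against 50.3% in all protein-coding autosomal genes). Skipped exons gave 1 of 8 (against 35.3%) and exon ends 1 of 5 (against 42.8%). Last exons gave 0 of 4 (against 31.4%), retained introns 0 of 2 (against 42.7%) and the skipped block 0 of 1 (against 26.8%). Of 49 genes with a listed first exon, 29 had 1 first exon and 20 had more, up to 4. Sites of a gene are not independent: the skipped exon and the last exon of Rab12 had the same minor shares (0, 1.71 and 2.16%). Shares are estimates from assembled transcripts and were not tested.

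At Rab7 and Rab5c the minor forms were small and recurred in all 3 libraries. At Rab7, an 87-base non-coding exon (chr6:88015632-88015718) was included in 3.34, 3.57 and 2.39% of the site's FPKM. At Rab5c, an exon end longer by 54 coding bases took 8.03, 7.29 and 5.29%, present in every library. These sites were named after their values were seen. The Rab5c stretch is shown because it is a coding difference in a highly expressed GTPase that was listed in all 3 libraries. It lies at chr11:100716852-100716905 on the minus strand of GRCm38, read from a GENCODE M21 transcript, with the length of 18 codons.
Rab5c segment: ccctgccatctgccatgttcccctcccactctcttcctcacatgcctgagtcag

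Rab5b was the abundant exception. Its 2 first exons share the start at chr10:128696264 on the minus strand and differ in where they end. A form of 79 bases, annotated and non-coding, took most of the FPKM, and one of 236 bases, not in the annotation, took 44.8, 39.7 and 34.5% (39.7 ± 5.12, SD, n = 3). In FPKM the longer form held to 9.58, 10.8 and 9.43, while the shorter one stood at 11.8, 16.4 and 17.9. Rab29 had the same layout, with a shared start at chr1:131867224 on the plus strand. A 187-base form that is not in the annotation took 31.3, 72.5 and 19.5%, against an annotated one of 552 bases with 124 coding bases. The order of the forms was turned in replicate 2, and without that library the mean share of the shorter form was 25.4%.

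Other alternative first exons lay apart on the chromosome. Rab30 used a start at chr7:92819905 for 81.8, 78.4 and 47.1% of its FPKM. The upstream start at chr7:92741603 gave 18.2, 0 and 52.9%. Another first exon, at chr7:92822196 and not in the annotation, gave 0, 21.6 and 0%. Rab40c divided between an annotated coding-transcript start and one annotated to a transcript subject to nonsense-mediated decay, which took 45.7, 56.2 and 13.3%. Rab11fip3 divided between 2 first exons that are not in the annotation, with 19.9, 57.3 and 50.8% for the upstream one. In Rab23 the strongest listed start belongs to a transcript annotated as a retained intron, and the other starts took 2.51, 19.9 and 47.0%. Rab3a had 14.2, 10.3 and 11.5% at its downstream start, an annotated coding one, and its major first exon is not in the annotation. Among these 5 genes the shares ranged widely between libraries except in Rab3a, whose level was 1.01 to 1.45 FPKM.

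**Figure D5:**
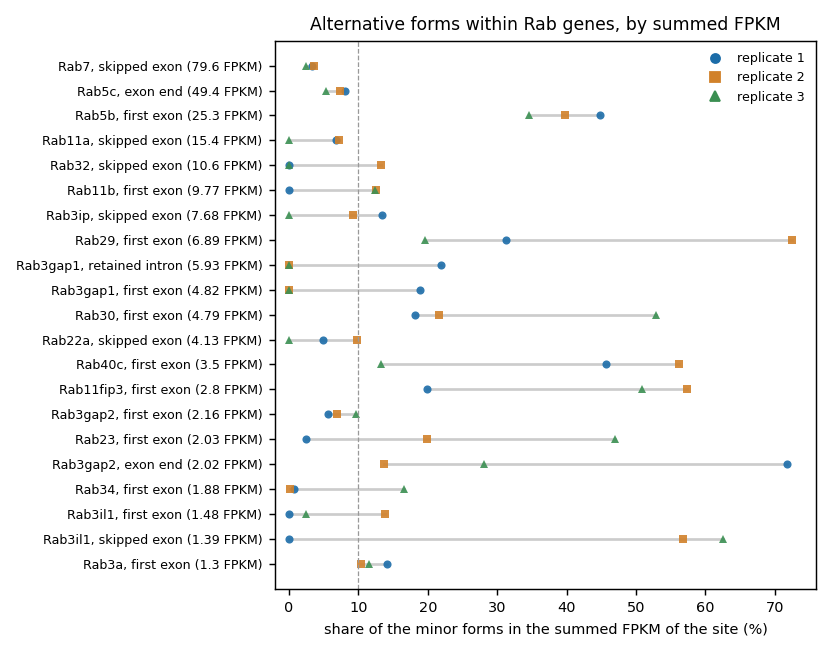
Share of the minor forms in the summed FPKM of a site (horizontal axis, %), for the 21 sites in Rab genes with a mean minor share of at least 3%, ordered by the site's mean FPKM (given in the label), with 1 marker per library and a grey line over their range. Rab7, Rab5c and Rab5b at the top have narrow ranges. The first exons of Rab29, Rab40c and Rab23, the exon end of Rab3gap2 and the skipped exon of Rab3il1 span 40 percentage points or more.

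Coding segments were also exchanged in the partners, all of them regulators that switch a Rab on or off. Rab3ip skipped a 96-base coding exon in 13.4, 9.28 and 0% (named after its values were seen). Rab3gap2 used an exon end longer by 60 coding bases in 71.7, 13.7 and 28.1%. Rab3il1 included a 219-base coding exon in 0, 56.8 and 62.5%. All 3 segments are a multiple of 3 bases long, with the length of 32, 20 and 73 codons, and are shown because they change the coding sequence without a change of frame by length. They were read from GENCODE M21 transcripts on GRCm38, at chr10:116928189-116928284 (minus strand), chr1:185267015-185267074 (plus strand) and chr19:10028285-10028503 (plus strand).
Rab3ip segment: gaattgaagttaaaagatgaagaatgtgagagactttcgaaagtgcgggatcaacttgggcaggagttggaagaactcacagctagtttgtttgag
Rab3gap2 segment: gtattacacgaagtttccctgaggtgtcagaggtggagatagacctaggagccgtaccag
Rab3il1 segment: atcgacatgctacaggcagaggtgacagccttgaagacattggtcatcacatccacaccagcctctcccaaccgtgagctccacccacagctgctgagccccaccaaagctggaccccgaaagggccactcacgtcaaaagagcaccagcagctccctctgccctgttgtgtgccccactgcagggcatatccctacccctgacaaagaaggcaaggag
At a site total of 1.17 to 1.54 FPKM for Rab3il1 and 1.62 to 2.72 FPKM for Rab3gap2, replicate 1 stood apart from the other 2 libraries in both genes, in opposite directions of inclusion. Among the forms seen in 1 library only were the inclusion of a Rab32 exon at 13.3% in replicate 2 and a retained Rab3gap1 intron at 22.0% in replicate 1, both named after their values were seen. Coding exons were also skipped in the GTPases Rab11a (196 bases) and Rab22a (82 bases), whose lengths are not a multiple of 3. Skipping took 6.80, 7.27 and 0% in Rab11a and 4.90, 9.78 and 0% in Rab22a, and these exons too were named after their values were seen.

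Regulators and effectors of the Rab cycle were described from a list of 80 symbols, of which 79 are in the annotation. Of these, 70 had a value (88.6%, against 53.3% of all protein-coding autosomal genes), and 60 of the 70 reached 1 FPKM on average (85.7%, against 76.8%). High levels were seen for Gdi2 (42.4 ± 1.96 FPKM, SD, n = 3), Rabac1 (37.7 ± 5.20), Trappc1 (22.3 ± 5.68) and Trappc3 (17.2 ± 0.533). Gdi2 is a GDP dissociation inhibitor, Rabac1 helps to place prenylated Rabs on membranes, and Trappc1 and Trappc3 are subunits of the exchange factor for Rab1. Of the GDI and prenylation genes 6 of 8 had a value, all 6 at 1 FPKM or more. The exchange factors had 27 of 30, all 27 at that level. GTPase-activating proteins had 14 of 17 with a value and 12 at 1 FPKM or more, and effectors had 23 of 24 and 15 (65.2% of those with a value, against 76.8%). The median of mean log2(FPKM + 1) was 4.36, 2.16, 2.21 and 1.56 in these 4 lists, and 2.23 over all protein-coding autosomal genes with a value, so 3 of the 4 lay below the overall median.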

How the data were processed

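RNA of normal mouse liver was sequenced in 3 libraries. HISAT2 2.0.1, HTSeq 0.6.1, cutadapt 1.9.1 and DESeq2 appear in the submitters' processing notes with the build mm9, and their roles do not. The tool behind the tables was not given in the sources used here. Per library, the authors deposited 1 table of events with an FPKM for each, per the file headers. First exons lay at exact first-exon positions of GENCODE M21 (GRCm38) in 82.0, 82.2 and 82.7% of cases, so positions were read as GRCm38.

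Identical rows were removed (1440 to 1519 per library). Events were given to a gene by identifier and kept where strand and position fitted the gene. Levels, log2(FPKM + 1) with a pseudocount of 1, CVs and shares were computed in Python 3.11.15 with pandas 2.3.3 and numpy 2.4.6, figures in matplotlib 3.10.9, and the steps were tested on simulated data. There is 1 group, so no test was made. The members and lists were chosen with earlier results of these data known, and Rab5if was put with the partners after the tables were read. Genes named with values were the highest 3 of each role, both genes of each pair, the 5 largest and 5 smallest coefficients of variation, the sites with minor forms of at least 10%, members under 1 FPKM by name, and the highest 5 partners, of which 1 is not reported here. Alternatives were first or last exons only, other ways to place events, other minimums and pseudocounts, and leaving out each replicate.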

Additional observations from a re-analysis of the deposited data

How the results depend on the processing

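No paired analysis was possible because the 3 libraries form 1 group, and their replicate numbers pair no samples across groups. Leaving out each replicate in turn gave 51 Rab genes with a value each time, 39 to 40 with a mean of at least 1 FPKM, 10 to 13 pairs with a fixed order and a median coefficient of variation of 9.11 to 12.5%. Counting last exons only left 40 genes with a value and 5 pairs with the same gene higher in every library. Of the 51 genes, 11 had no listed last exon, and Rab5b had one in replicate 1 only. A pseudocount of 0.1 lowered the median log2 level from 2.48 to 2.22. It moved 8 of the 15 pair differences by more than their SD and turned none: Rab2a minus Rab2b became 6.71, Rab6a minus Rab6b 4.58, Rab22a minus Rab31 2.31 and Rab11fip1 minus Rab11fip5 1.12. A minimum site total of 5 FPKM left 21 alternative sites, 2 of them with a minor share of at least 10%, in place of 36 and 9. Without any of the replicates in turn there were 37 to 40 sites, and 11 had a minor share of at least 10%. Rab5a minus Rab5b turned from -0.44 to 2.59 with last exons only, in replicate 1 alone since the other libraries list no last exon of Rab5b, and to 0.26 with exactly annotated first and last exons. Rab3a minus Rab3d turned from -0.14 to 0.013 with last exons only, and ranged from -0.57 without replicate 1 to 0.063 and 0.099 without replicates 2 and 3. Counts of genes with a value, from 47 to 52, stayed near 51 under the other ways of placing events. Rab3gap1 minus Rab3gap2 fell from 1.16 to 0.82 with exactly annotated first and last exons. The depth is unknown, which limits the forms and genes of low FPKM most.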

Other observations

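Some Rab transcripts stand outside the rule by chromosome, biotype or identifier. Rab9, a GTPase of retrograde transport from late endosomes to the Golgi, is X-linked and stood at 29.7, 35.1 and 30.6 FPKM (31.8 ± 2.93, SD, n = 3), a level between those of Rab18 and Rab14. The non-coding antisense genes Rab10os and Rab26os had 3.99, 4.25 and 3.35 FPKM and 2.59, 2.21 and 1.26 FPKM. Whether reads were counted by strand was not given in the sources used here.

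Rab43 and Rab4b had no value under their own identifiers, but events at their annotated first exons are listed under a neighbour's. Exactly annotated first exons of Rab43, on the minus strand, carry the identifier of Isy1: the exon at chr6:87809619-87809754 stood at 7.04, 30.8 and 29.2 FPKM, and the exon at chr6:87811347-87811779 at 17.9, 6.96 and 8.37 FPKM. The order of the 2 exons was opposite in replicate 1 to that in replicates 2 and 3, and their sum was 25.0, 37.8 and 37.6 FPKM. The first exon of Rab4b at chr7:27178727-27178896, on the minus strand, carries the identifier of Mia and stood at 5.86, 3.94 and 4.96 FPKM. Of the 50-base stretches of Rab4b and Rab43, 80.3% and 77.0% also occur in overlapping gene models (Gm21983 and Gm45140), so these values may include those transcripts. For these 2 genes the absence from the 51 goes with the identifier that the tables use.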
